A study of Mus musculus with 10 samples.

Results

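Mouse chromosome 16 (Mmu16) holds a group of genes for chromatin and chromosome proteins in the region homologous to human chromosome 21. The 8 described here are N6amt1, Usp16 and Mis18a in the Dp5Yah interval, Morc3, Chaf1b, Brwd1 and Hmgn1 in the Dp1Rhr interval, and Setd4 between the intervals. They were chosen by position and function out of 19938 genes measured, with earlier results of these data known. Each was read from 1 probe set. Their expression was compared in the hippocampus of 5 Dp5/Dp1 mice and 5 control littermates, all males of 16 weeks, with 1 array per mouse. Dp5/Dp1 mice carry the segmental duplications Dp5Yah and Dp1Rhr together, in a compound transheterozygous state, so that genes inside them are present in 3 copies in every cell, while controls have 2 copies. Dp5Yah was engineered by recombination between loxP sites placed in App and Runx1. The strain is C57BL/6N in the labels and C57BL/6J in the study's methods. The same control mice were littermates for 2 single-duplication lines, not analysed here, and their arrays carry a note of re-analysis. Mutant titles give Dp5Yah first and the combined model in brackets, and genes of both intervals were higher on these arrays, as given below.

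DNA in the nucleus is wound around histones, and the proteins studied here write, erase, read or place marks and histones on it. Usp16 removes ubiquitin from histone H2A and thereby opposes the Polycomb complex PRC1. N6amt1 works with its partner Trmt112 as a methyltransferase of the translation release factor Etf1 and of histone H4, and Setd4 is a SET domain methyltransferase. Brwd1 reads acetylated histones through its bromodomains. Morc3 is an ATPase that binds methylated histone H3 and gathers at PML nuclear bodies. Hmgn1 binds nucleosomes and loosens chromatin. Chaf1b is a subunit of CAF-1, which puts histones on newly copied DNA, and Mis18a prepares centromeres for loading of the histone CENP-A, so both serve dividing cells, which are rare in the adult hippocampus.

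N6amt1, Usp16, Morc3 and Brwd1 were higher in Dp5/Dp1 hippocampi at an adjusted p under 0.05, by 0.35 to 0.47 on the log2 scale, which is 1.28-fold to 1.39-fold. Called below means past that threshold in limma, with Benjamini-Hochberg adjustment over the 19938 genes. These were 4 of the 8 genes, 2 of 3 in Dp5Yah and 2 of 4 in Dp1Rhr, and 0.201% of all genes measured were called higher. No gene of the 8 was called lower (0.00502% of all genes, and 0.206% were called in either direction). At an unadjusted p under 0.05, 6 of the 8 were higher and 0 lower, beside 3.39% and 2.67% of all genes. Mis18a and Hmgn1 also had higher means, by 0.45 and 0.23, with adjusted p-values of 0.0589 and 0.412. The 2 remaining genes, Chaf1b and Setd4, had differences of -0.0027 and 0.0013. For 5 of the 8, N6amt1, Usp16, Mis18a, Morc3 and Brwd1, every Dp5/Dp1 array was above every control array, against 0.762% of all genes. The opposite order held for 0 of the 8 and for 0.321% of all genes. The median difference over the 8 genes was 0.38, beside 0.0019 over all genes. In bulk tissue more cells of a type and more RNA per cell cannot be told apart.

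**Figure D1:**
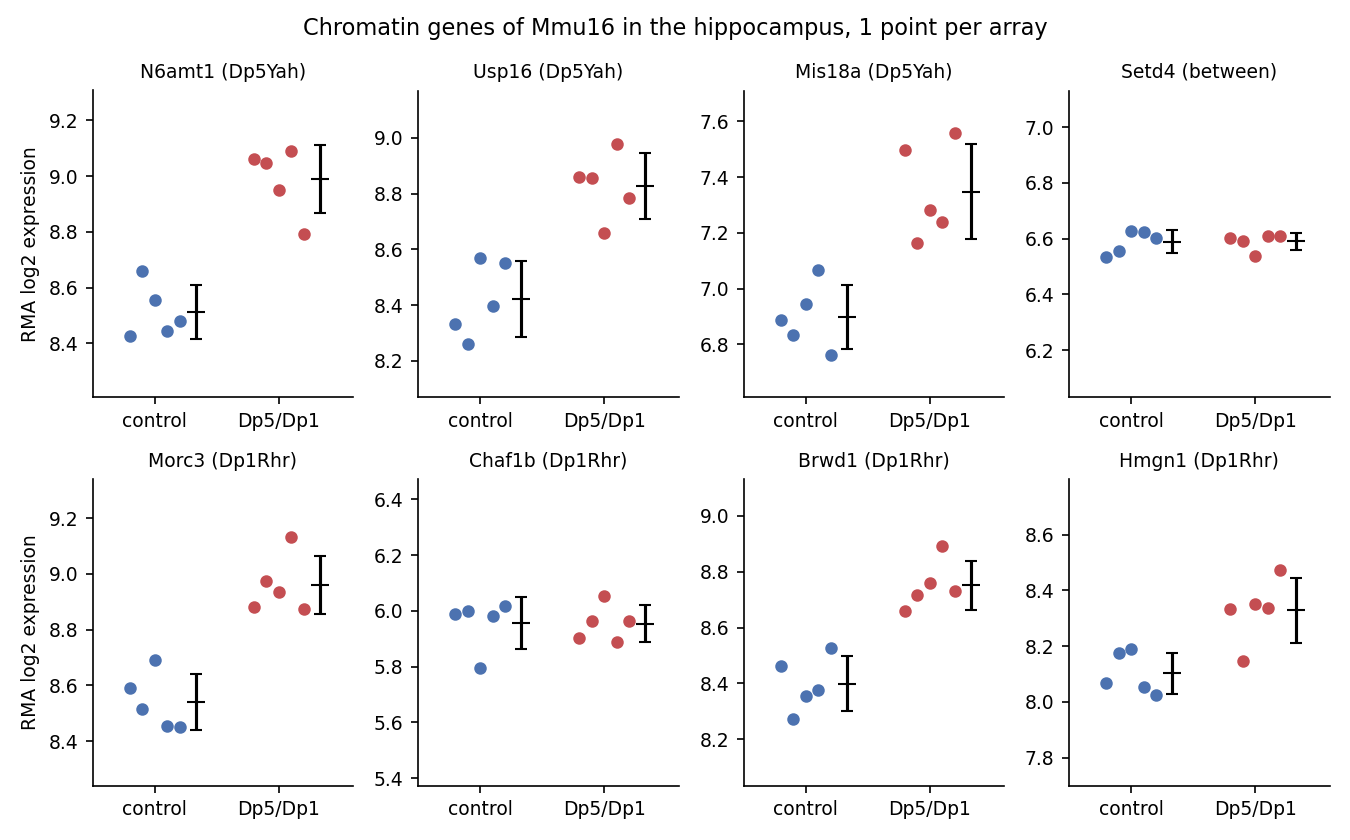
Values of the 8 chromatin genes on each array, as RMA log2 expression, with control arrays in blue and Dp5/Dp1 arrays in red in the order of their replicate numbers, and mean ± SD (n = 5) as black bars. Every panel spans the same number of log2 units. The groups are separate for N6amt1, Usp16, Mis18a, Morc3 and Brwd1, overlap on 1 Dp5/Dp1 array for Hmgn1, and overlap on most arrays for Setd4 and Chaf1b.

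The promoter windows of 4 of these genes are printed because they pair called with uncalled genes. Usp16 and Morc3 were called. Chaf1b, the next gene distal to Morc3, and Setd4, which has 2 copies, were not. Each line gives the 250 bases before the start that RefSeq's table of GRCm38.p6 uses, 5′ to 3′ on the strand of the gene. Capitals mark matches, on either strand, to the Sp motif GGGCGG, the ETS motif CCGGAAG and the CCAAT box. The windows lie at chr16:87454735-87454984 (plus strand) for Usp16, chr16:93831871-93832120 (plus) for Morc3, chr16:93883651-93883900 (plus) for Chaf1b and chr16:93603816-93604065 (minus) for Setd4, whose window belongs to a start inside the annotated gene.
Usp16: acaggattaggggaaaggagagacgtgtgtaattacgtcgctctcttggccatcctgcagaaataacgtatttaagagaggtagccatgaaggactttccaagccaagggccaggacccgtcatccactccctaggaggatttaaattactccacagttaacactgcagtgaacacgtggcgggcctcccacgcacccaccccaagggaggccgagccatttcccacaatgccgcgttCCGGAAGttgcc
Morc3: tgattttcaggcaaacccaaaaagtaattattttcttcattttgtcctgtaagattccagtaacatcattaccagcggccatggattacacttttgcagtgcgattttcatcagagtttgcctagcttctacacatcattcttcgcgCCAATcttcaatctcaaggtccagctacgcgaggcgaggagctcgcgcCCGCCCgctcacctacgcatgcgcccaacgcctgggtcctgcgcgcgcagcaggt
Chaf1b: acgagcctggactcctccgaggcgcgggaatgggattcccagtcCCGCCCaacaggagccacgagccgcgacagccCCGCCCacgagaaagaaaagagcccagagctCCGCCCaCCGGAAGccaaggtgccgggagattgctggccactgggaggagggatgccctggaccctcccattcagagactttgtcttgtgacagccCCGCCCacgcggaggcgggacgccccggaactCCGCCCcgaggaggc
Setd4: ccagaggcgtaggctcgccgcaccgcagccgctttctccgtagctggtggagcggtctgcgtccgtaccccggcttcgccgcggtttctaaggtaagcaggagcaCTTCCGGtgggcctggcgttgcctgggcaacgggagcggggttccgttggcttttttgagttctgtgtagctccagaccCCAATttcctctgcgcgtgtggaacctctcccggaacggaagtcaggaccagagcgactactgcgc

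All 8 genes had a window in the RefSeq table, and each held more CpG than the median window. They held 11 (N6amt1) to 52 (Brwd1) CpG in the 300 bases that include the first 50 of the transcript, against a median of 7 over 32851 windows. Their GC content ran from 41.0% (N6amt1) to 80.0% (Brwd1) around a median of 52.7% for all windows. The ETS motif CCGGAAG stood in Usp16 at positions -12 to -6 from the start, in Chaf1b and in Setd4, and in 8.86% of all windows. The CCAAT box was found in Morc3, Setd4 and Hmgn1 and in 37.4% of all windows. The Sp motif was found in 6 windows, those of N6amt1, Mis18a, Morc3, Chaf1b, Brwd1 and Hmgn1, and in 35.7% of all. It occurred 5 times in the printed bases of Chaf1b and once in those of Morc3. The NRF1 motif, present in 4.6% of all windows, was found in N6amt1, just after the start, and in Mis18a, at positions -19 to -10. The CRE motif TGACGTCA (1.79% of all windows), the E2F motifs TTTCCCGC (1.07%) and TTTGGCGC (0.514%) and the CHR motif TTTGAA (17.9%) were in none of the 8. Motifs were searched on both strands, and a match is a run of letters, not a bound site. Matches were thus found both in genes that were called and in genes that were not.

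N6amt1 (chromosome 16, 87354185 to 87368649, GRCm38) showed the largest difference of the 8. Its log2 values were 8.42, 8.66, 8.56, 8.44 and 8.48 on control arrays 1 to 5, and 9.06, 9.05, 8.95, 9.09 and 8.79 on Dp5/Dp1 arrays 1 to 5. The groups were separate, with 0.13 between them. The means were 8.51 ± 0.10 and 8.99 ± 0.12 (SD, n = 5), a log2 difference of 0.47 ± 0.06 (SE; limma adjusted p = 0.00653) with a 95% interval from 0.34 to 0.61. A ratio of 3 copies to 2 would be 1.5-fold, or 0.585 on the log2 scale, and lies inside this interval. RMA values understate differences, mostly of dim probe sets, so the measured fold is not a copy number. N6amt1 ranked 5 of 59 by difference among the Dp5Yah genes outside the claudin-keratin cluster. Markers of the choroid plexus, which borders the hippocampus, varied between arrays of each group. The control array with the highest N6amt1 (replicate 2) had the lowest mean of 10 choroid plexus markers, 6.91 on the log2 scale. The Dp5/Dp1 array with the lowest N6amt1 (replicate 5) had the highest such mean of its group, 8.43. With that mean as a covariate the difference was 0.43 (adjusted p = 0.000374).

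Usp16 (87454985 to 87483515), the H2A deubiquitinase, lies distal to N6amt1. Control arrays 1 to 5 gave log2 values of 8.33, 8.26, 8.57, 8.40 and 8.55, and Dp5/Dp1 arrays 1 to 5 gave 8.86, 8.86, 8.66, 8.98 and 8.78. The groups were separate, but only 0.088 lay between the highest control and the lowest Dp5/Dp1 array, both replicate 3 of their group. The means were 8.42 ± 0.14 and 8.83 ± 0.12 (SD, n = 5), which differed by 0.41 ± 0.07 (SE; 95% interval 0.25 to 0.56), and limma's adjusted p of 0.0479 was close to the threshold. The call held in 2 of 10 fits with 1 array left out, those without replicate 3 of either group, and ended without any of the other arrays, where adjusted p reached 0.175 (without control replicate 1) while the difference stayed between 0.37 and 0.45 in all 10 fits. Its neighbour Rwdd2b, 14.4 kb on the proximal side, rose by 0.50 ± 0.08 (adjusted p = 0.025). Ltn1, the ribosome quality control ligase 8.0 kb distal to N6amt1, rose by 0.38 ± 0.05 (adjusted p = 0.00576). Map3k7cl, 69.8 kb distal to Usp16, differed by 0.12 ± 0.05 (adjusted p = 0.806).

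Mis18a (90719312 to 90727371), the centromere factor, had control values of 6.89, 6.83, 6.95, 7.07 and 6.76 and Dp5/Dp1 values of 7.50, 7.16, 7.28, 7.24 and 7.56 in the order of replicates. The groups did not overlap, and Dp5/Dp1 replicates 1 and 5 stood above the other 3 arrays of their group. The difference, 0.45 ± 0.08 (SE) between 6.90 ± 0.11 and 7.35 ± 0.17 (SD, n = 5), missed the threshold (limma adjusted p = 0.0589), with a 95% interval from 0.27 to 0.62. It passed in 3 other limma fits of all 10 arrays. The adjusted p was 0.0287 under an intensity trend with robust variance, 0.0330 without the dimmest 40% of genes and 0.0487 with every probe set tested apart. The remaining limma fits of all 10 arrays missed the threshold, with adjusted p from 0.0544 (choroid plexus markers as a covariate) to 0.278 (replicate block). Mis18a passed in 1 of 10 fits with 1 array left out, the fit without Dp5/Dp1 replicate 2 (0.0396). In the other such fits adjusted p reached 0.199. FCROS, the study's rank method as rewritten here, passed Mis18a as higher, beside 2.84% of all genes. Hunk, 219.8 kb proximal, rose by 0.34 ± 0.05 (adjusted p = 0.0175), and Mrap, 10.8 kb distal and dim on these arrays, differed by 0.02 ± 0.03.

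Morc3 (93832121 to 93876077), the PML body ATPase, gave 8.59, 8.52, 8.69, 8.46 and 8.45 on control arrays 1 to 5 and 8.88, 8.97, 8.94, 9.13 and 8.87 on Dp5/Dp1 arrays 1 to 5. The gap between the groups, 0.18, was the widest of the 8 genes. The means of 8.54 ± 0.10 and 8.96 ± 0.10 (SD, n = 5) differed by 0.42 ± 0.06 (SE; limma adjusted p = 0.0100; 95% interval 0.29 to 0.55). Morc3 was called in all 10 fits with 1 array left out, as was N6amt1. Without Dp5/Dp1 replicates 2 and 5 together its adjusted p was 0.0705, while the difference was 0.44 ± 0.07 (SE), larger than with all arrays. It ranked 5 of 31 in Dp1Rhr, and Dop1b, 21.5 kb proximal, rose by 0.36 ± 0.04 (adjusted p = 0.00118).

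Chaf1b (93883900 to 93906115), the CAF-1 subunit, starts 7.8 kb after the end of Morc3 and has the same 3 copies. Its control values were 5.99, 6.00, 5.79, 5.98 and 6.02, and its Dp5/Dp1 values were 5.90, 5.96, 6.05, 5.89 and 5.97. The groups overlapped, although Dp5/Dp1 replicate 3 was above every control and control replicate 3 below every Dp5/Dp1 array. The means, 5.96 ± 0.09 and 5.95 ± 0.07 (SD, n = 5), differed by -0.0027 ± 0.05 (SE; limma adjusted p = 0.995), and the 95% interval, -0.11 to 0.10, lay below 0.585. The probe set was among the dimmest 40% of all genes. In that range 0 of the 54 interval genes were called, with a median difference of 0.004, whereas 37 of the 59 brighter ones were. Without the claudin-keratin cluster it was 0 of 32 dim genes, with a median difference of 0.021, and 37 of 58 brighter ones. By limma 87 of all 113 interval genes had a higher mean, and 0 were called lower. Its distal neighbour Cldn14, a claudin gene 12.9 kb away, differed by 0.01 ± 0.04. No change in Chaf1b RNA was detected at this dim signal, which is not a measurement that its RNA was equal. Why no difference was seen was not tested.

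Brwd1 (95992089 to 96082703), the bromodomain reader, had control values of 8.46, 8.27, 8.36, 8.38 and 8.53 and Dp5/Dp1 values of 8.66, 8.72, 8.76, 8.89 and 8.73. Each Dp5/Dp1 array exceeded each control, by at least 0.13. The means of 8.40 ± 0.10 and 8.75 ± 0.09 (SD, n = 5) differed by 0.35 ± 0.05 (SE; limma adjusted p = 0.0198; 95% interval 0.23 to 0.47). The call held in 5 of 10 fits with 1 array left out, and ended when control array 3 or 4 or Dp5/Dp1 array 2, 3 or 5 was omitted, where adjusted p lay between 0.0514 and 0.0757. Psmg1, a proteasome assembly chaperone 1.1 kb proximal, rose by 0.47 ± 0.08 (adjusted p = 0.0321).

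Hmgn1 (96121588 to 96127725), the nucleosome-binding protein, lies 38.9 kb distal to Brwd1. It gave 8.07, 8.18, 8.19, 8.05 and 8.03 on control arrays 1 to 5, and 8.33, 8.15, 8.35, 8.34 and 8.47 on Dp5/Dp1 arrays 1 to 5. Replicate 2 fell within the control range, and the other 4 Dp5/Dp1 arrays were above every control. The difference was 0.23 ± 0.06 (SE) between 8.10 ± 0.07 and 8.33 ± 0.12 (SD, n = 5), with a 95% interval from 0.10 to 0.35. Limma's unadjusted p was 0.00184 and the adjusted p 0.412. Leaving out replicate 2 gave a difference of 0.27 and an adjusted p of 0.0619. The difference was 0.24 (adjusted p = 0.180) without replicates 2 and 5 together. FCROS passed Hmgn1 as higher, beside 2.84% of all genes. Get1, 17.7 kb distal, rose by 0.43 ± 0.04 (adjusted p = 0.00107), so Hmgn1 lay between a pair of called genes.

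Setd4 (93583457 to 93604791), the SET domain gene, lies between the intervals and is listed by the study as present in 2 copies. Control arrays gave 6.54, 6.55, 6.63, 6.62 and 6.60, and Dp5/Dp1 arrays gave 6.60, 6.59, 6.54, 6.61 and 6.61. The groups overlapped throughout. The means of 6.59 ± 0.04 and 6.59 ± 0.03 (SD, n = 5) differed by 0.0013 ± 0.03 (SE; limma adjusted p = 0.995; 95% interval -0.06 to 0.07). The probe set is among the dimmest 40%, where genes with 3 copies gave differences near 0 too, so copy number cannot be read from it. Runx1, the next gene 757.4 kb on the proximal side, where 1 loxP site was placed, rose by 1.14 ± 0.07 (adjusted p = 4.83e-05). Per the study's methods Dp5Yah mice express 2 complete copies of Runx1, not 3. Cbr1, 3.0 kb distal and the first gene of Dp1Rhr, differed by 0.07 ± 0.04 (adjusted p = 0.832).

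**Figure D2:**
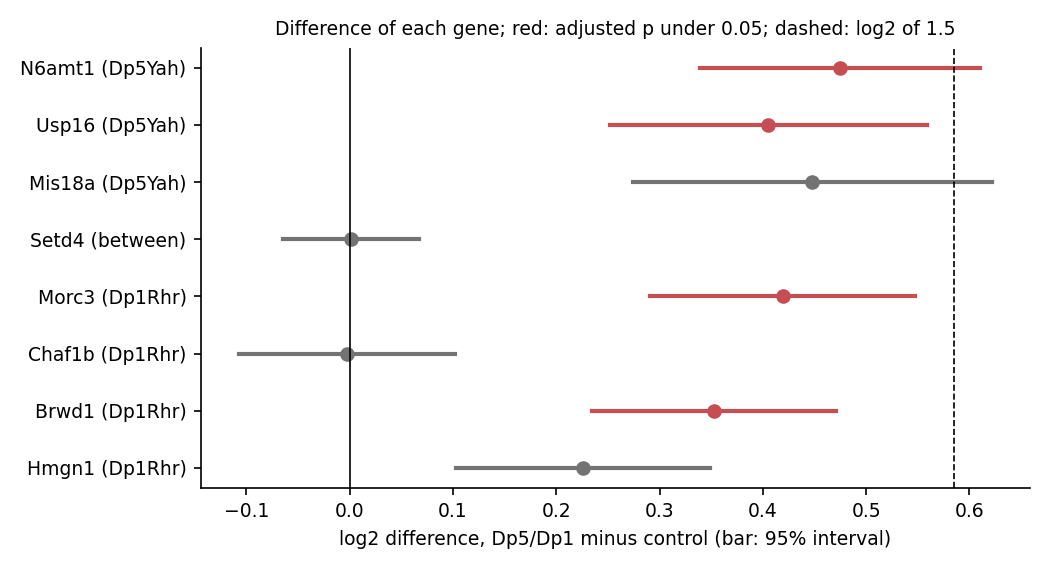
Log2 difference of each gene, Dp5/Dp1 minus control, with its 95% interval from limma, ordered by position. Red marks an adjusted p under 0.05, the solid line 0 and the dashed line 0.585, the log2 of 1.5. Intervals of 6 genes lie above 0, and those of N6amt1 and Mis18a alone reach the dashed line.

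The chromatin genes were also set beside the other genes of their intervals. Dp5Yah was read from Cyyr1 to Clic6 (chromosome 16, 85452858 to 92541241) and held 82 genes, 23 of them in a claudin-keratin cluster. Dp1Rhr was read from Cbr1 to Fam3b (93607837 to 97504936) and held 31. Without the chromatin genes, 33 of 53 brighter interval genes were called, with a median difference of 0.36 and quartiles of 0.24 and 0.44. N6amt1 and Mis18a lay above that upper quartile, Usp16, Morc3 and Brwd1 between the quartiles, and Hmgn1 below the lower one.

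**Figure D3:**
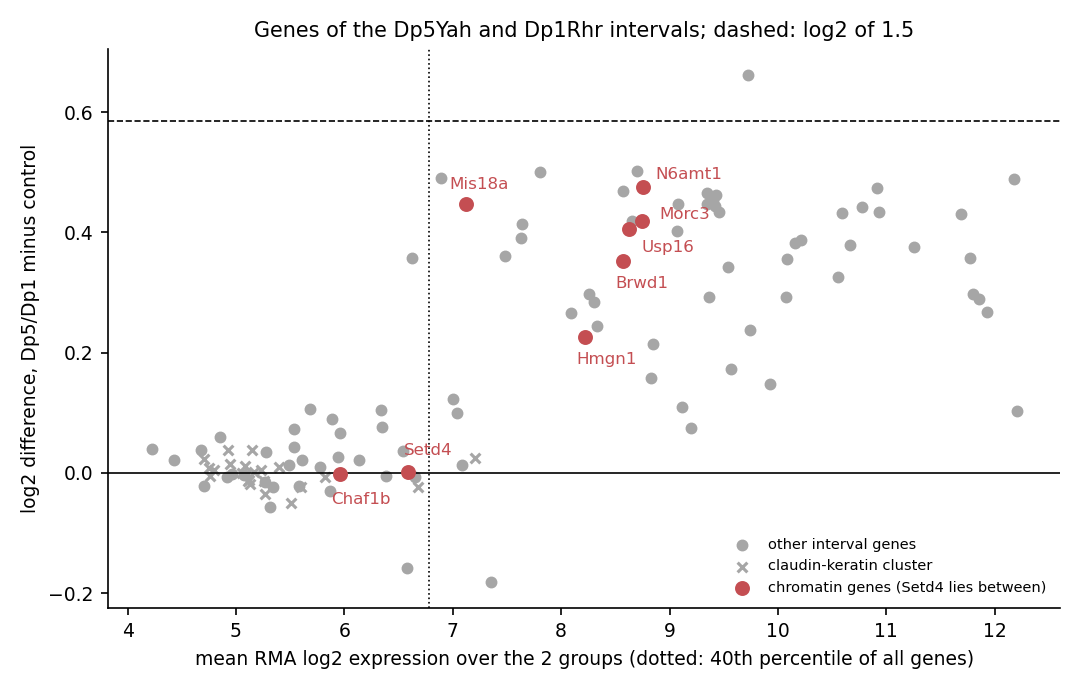
Mean RMA log2 expression of each interval gene against its log2 difference, Dp5/Dp1 minus control. Chromatin genes are red, the claudin-keratin cluster is drawn as crosses, and the dotted line is the 40th percentile of all genes. Chaf1b and Setd4 lie with the dim genes near 0, and the other 6 chromatin genes with the brighter ones.

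Some genes followed the chromatin genes closely over the 10 arrays. The 2 genes with the highest Pearson r were taken for each, out of all other genes. The r after subtraction of the group means is given second, as a description with no test. Picking the highest r over so few arrays gives high values by itself. Usp16 was closest to Son, an RNA splicing protein (0.96 and 0.84), and Tiam1 (0.92 and 0.61). N6amt1 was closest to Synj1 (0.96 and 0.70) and Dscam (0.96 and 0.72), Morc3 to Cct8 (0.97 and 0.82) and Ttc3 (0.97 and 0.78), and Brwd1 to Bach1 (0.96 and 0.80) and Kcnj6 (0.94 and 0.75). These 8 genes all lie in Dp5Yah or Dp1Rhr, so the group difference is part of the first value. The nearest genes of the other 4 lay on other chromosomes. Mis18a was closest to Hsdl2 (0.97 and 0.96) and Olfr1504 (0.95 and 0.85), and Hmgn1 to Slc17a8 (0.94 and 0.84) and Olfr1049 (0.94 and 0.85). Setd4 was closest to Dmtf1 (0.92 and 0.94) and Slc27a5 (0.91 and 0.91), and Chaf1b to Mpig6b (0.91 and 0.92) and Muc3 (0.89 and 0.89).

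Of the 8 chromatin genes, 7 have 3 copies in Dp5/Dp1 and Setd4 has 2. Partners and relatives of the 8 that lie outside the duplicated intervals were read next, to see whether they differed between the groups. Lists of dividing cells, new neurons and other chromatin genes homologous to human chromosome 21 were added, and the counts below include them. Some of the partners and relatives, such as Brwd3, Atrx and Hmgn5, are X-linked, and their copy number is the same in both groups of males. Of 232 genes in 15 lists, 215 were measured, and 0 were called by limma. A limma unadjusted p under 0.05 was reached by 4 that were higher and 12 that were lower, together 7.44% against 6.06% of all genes. By direction, 3.39% of all genes were higher and 2.67% lower at that p. Means were higher for 85 and lower for 130, with a median difference of -0.0186, while 51.5% of all genes had a higher mean. FCROS, the rank method of the study as rewritten here, passed 7 of them (3.26%) as higher and 9 (4.19%) as lower, beside 2.84% and 2.21% of all genes. No gene named from these lists had separate groups.

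**Figure D4:**
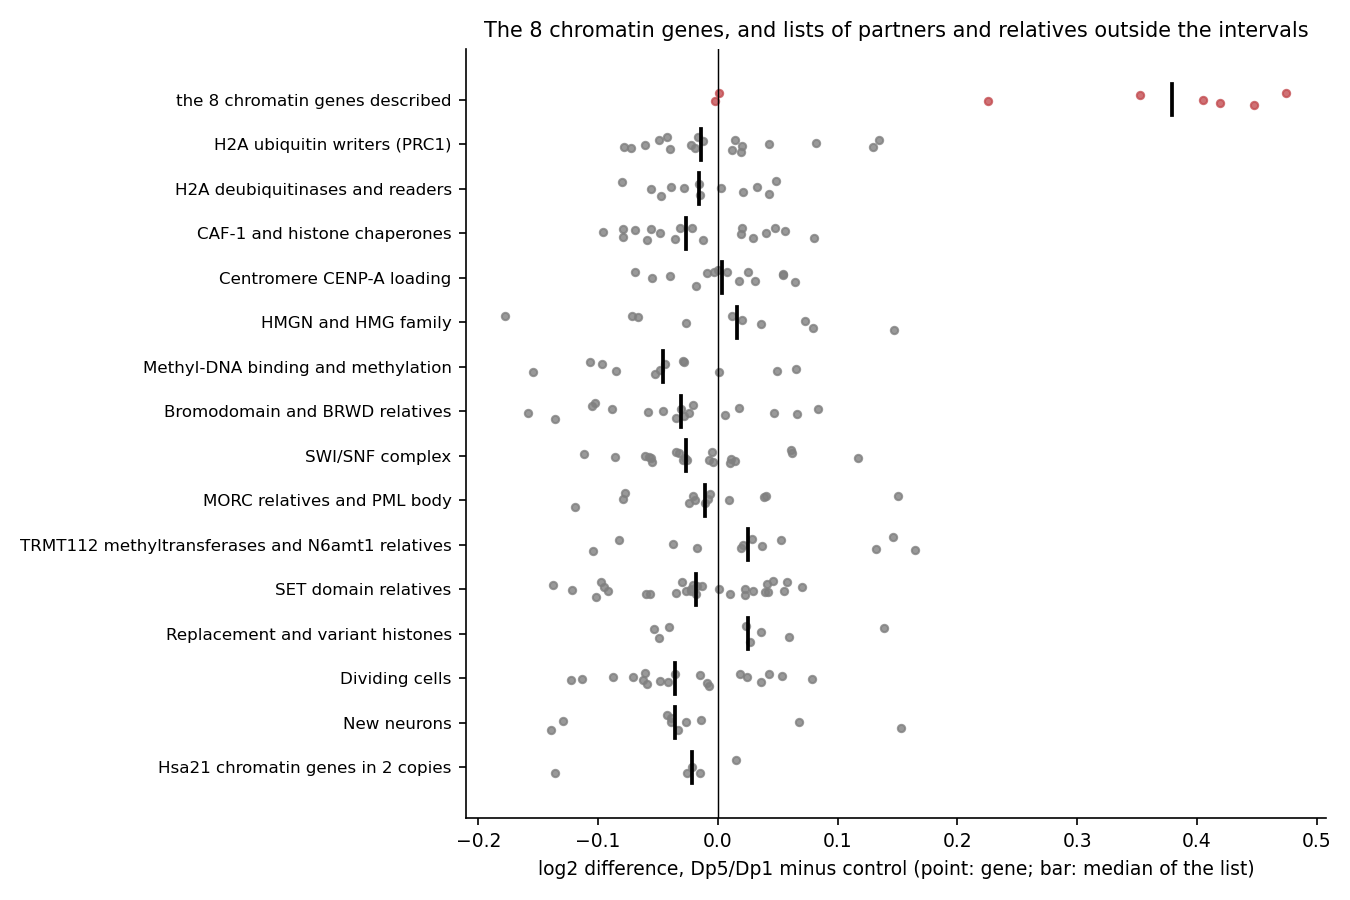
Log2 difference of each gene, Dp5/Dp1 minus control, for the 8 chromatin genes (red) and for 15 lists (grey), with list medians as black bars. The lists hold partners and relatives, and also genes of dividing cells, of new neurons and other chromatin genes homologous to human chromosome 21. List medians lie between -0.046 and 0.025, against 0.38 for the 8.

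Around Usp16, the PRC1 list of H2A ubiquitin writers (18 of 20 measured) had 8 higher and 10 lower means, a median of -0.014 and 0 called. Cbx8, a Polycomb reader, differed by 0.13 ± 0.06 (SE; limma adjusted p = 0.810), and Pcgf5, a RING partner, by -0.08 ± 0.04 (adjusted p = 0.832). The other H2A deubiquitinases and readers (12 of 12) had a median of -0.015 and 0 called. Usp22 of the SAGA complex differed by 0.04 ± 0.03, and Wdr48, an activator of deubiquitinases, by -0.08 ± 0.06. Usp16 itself differed by 0.41.

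Among histone carriers, the list of CAF-1 and other chaperones (18 of 19) had a median of -0.026 and 0 called. Hira, which places histones outside replication, differed by -0.10 ± 0.04 (limma adjusted p = 0.812), and lies on Mmu16 outside both intervals. Atrx, a remodeller, differed by -0.08 ± 0.04. Replacement and variant histones (8 of 10) had a median of 0.025, with 0.14 ± 0.07 for Macroh2a2 and -0.05 ± 0.03 for H3f3a, which is dim and has near-identical copies. For Mis18a, the list of CENP-A loading and centromere genes (14 of 16) had a median of 0.0039, and 9 of the 14 were among the dimmest 40%. Cenpa, the centromeric histone itself, differed by -0.07 ± 0.04 and Cenpk by 0.05 ± 0.03, neither called.

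Dividing-cell genes (19 of 20), of interest since Chaf1b and Mis18a act in dividing cells, had a median of -0.036, and 15 of the 19 were dim. Cdk1 differed by -0.11 ± 0.04 (limma unadjusted p = 0.0108, adjusted p = 0.740) and Mcm3, a replication helicase subunit, by -0.12 ± 0.04 (unadjusted p = 0.0157, adjusted p = 0.788). Genes of new neurons (10 of 10) had 2 higher and 8 lower means, a median of -0.036 and 0 called. The 2 with the lowest p were the 2 with higher means, Tbr1 (0.15 ± 0.08) and Stmn1 (0.07 ± 0.04).

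Relatives of Brwd1 (17 of 18) had 5 higher and 12 lower means, and a median of -0.031. Its relative Brwd3, on the X chromosome, differed by -0.16 ± 0.06 (limma unadjusted p = 0.0180, adjusted p = 0.806) against the rise of Brwd1, and Baz2b by -0.10 ± 0.04 (adjusted p = 0.813). The SWI/SNF remodeller (20 of 20) had 14 lower means and a median of -0.026, with Arid2 at -0.11 ± 0.05 and Arid1b at -0.06 ± 0.03. HMG proteins related to Hmgn1 (10 of 12) had a median of 0.016. Hmgn5 differed by -0.18 ± 0.10 and Hmgxb3 by -0.07 ± 0.04. Genes that bind or set DNA methylation (12 of 13) had 9 lower means and the lowest list median, -0.046. Mbd2 differed by -0.09 ± 0.03 (unadjusted p = 0.0137) and Tet3, a DNA demethylase, by -0.15 ± 0.06 (unadjusted p = 0.0240), and neither was called.

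Relatives of Morc3 and PML body genes (13 of 16) had a median of -0.010. Pias2, a SUMO ligase, differed by -0.12 ± 0.04 (limma unadjusted p = 0.0115, adjusted p = 0.741), and Sp100, a PML body protein, by 0.15 ± 0.06 (unadjusted p = 0.0252, adjusted p = 0.806). For N6amt1, the list of Trmt112, other methyltransferases and release factors (12 of 12) had 8 higher means and a median of 0.025. Hemk1, its mitochondrial relative, differed by 0.17 ± 0.05 (unadjusted p = 0.00893, adjusted p = 0.714) and Eef1akmt1 by 0.15 ± 0.06 (adjusted p = 0.806). SET domain relatives of Setd4 (29 of 31) had a median of -0.019, with Kmt5b at -0.10 ± 0.04 and Kmt2c at -0.14 ± 0.06. Of 5 other chromatin genes homologous to human chromosome 21 that lie outside both intervals, 4 had lower means. Prdm15 differed by -0.14 ± 0.08 and Zbtb21 by 0.01 ± 0.03, and both lie on Mmu16 just beyond Dp1Rhr.

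Tissue composition was read from marker genes on the same arrays. The mean of 12 hippocampal neuron markers lay between 10.65 and 10.68 in controls and between 10.60 and 10.69 in Dp5/Dp1. Markers of tissue next to the hippocampus varied more. All 10 choroid plexus markers had lower means in Dp5/Dp1 (range of the array means 6.91 to 8.80 in controls and 6.98 to 8.43 in Dp5/Dp1), and all 9 medial habenula markers had higher means (6.74 to 7.22 and 6.81 to 8.14). Thalamus markers had lower means for 9 of 10 (8.24 to 8.74 and 8.01 to 8.32), 3 of them at a limma unadjusted p under 0.05. Array means of microglia markers (8.88 to 8.99 and 8.80 to 9.02), astrocyte markers (10.64 to 10.80 and 10.62 to 10.73) and oligodendrocyte markers (11.00 to 11.15 and 10.99 to 11.24) overlapped between the groups. The 10 astrocyte markers went both ways, with 4 higher and 6 lower means and differences from -0.17 to 0.13. At a limma unadjusted p under 0.05, 2 were lower, Gja1 by -0.11 ± 0.04 and the glutamate transporter Slc1a2 by -0.07 ± 0.03, the latter with separate groups. Endothelium and blood markers shifted with the group as a mean, although 4 of the 7 were higher and 3 lower (differences from -0.076 to 0.28). Their array means lay between 8.31 and 8.48 in controls and between 8.45 and 8.59 in Dp5/Dp1, with 4 of 5 Dp5/Dp1 arrays above every control. The median difference of the 7 markers was 0.22, and 3 of them, Cldn5 (0.25), Kdr (0.23) and Tek (0.22), reached an unadjusted p under 0.05. None of these astrocyte, endothelium and blood markers was called, and their part in the differences of the chromatin genes was not tested. When the fit took the choroid plexus mean of each array into account, 3 of the 4 called genes passed, N6amt1, Morc3 and Brwd1. With choroid plexus and habenula markers together only N6amt1 passed, with a difference of 0.45 and an adjusted p of 0.00397, and Morc3 (0.0731), Brwd1 (0.0549) and Usp16 (0.269) did not. Their differences in that fit were 0.40, 0.39 and 0.38. Without Dp5/Dp1 replicates 2 and 5, N6amt1 was again the 1 gene of the 8 to pass.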

How the data were processed

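Total RNA of the whole hippocampus (both sides) of 5 control and 5 Dp5/Dp1 males was hybridised to Affymetrix Mouse Gene 1.0 ST arrays, and groups came from the condition label. The authors normalized the arrays with RMA and deposited log2 expression values, without a scan date. RMA, limma and mm10 are named in the submitters' processing notes, without versions. Array medians lay between 6.73 and 6.80, and array correlations across genes between 0.996 and 0.998. The number of arrays limits the precision.

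Of 35556 probe sets, 21789 had 1 gene symbol and were used, 1621 had several and 12146 were unnamed. The probe set with the highest mean was kept per gene, which left 19938 genes, with positions and promoter windows from RefSeq (GRCm38.p6, the assembly of mm10). Groups were compared with the moderated linear model of limma 3.58.1 (R 4.3.3), two-sided and without covariates, and Benjamini-Hochberg adjustment over all genes at 0.05. The script was tested on simulated data. Genes named were the 8 chromatin genes and, in each list other than the marker lists, the called genes or else the 2 with the lowest p. The 2 most correlated genes of each chromatin gene were named too, and other genes, here the direct neighbours, where a result turned on them. Astrocyte, endothelium and blood markers with a limma unadjusted p under 0.05 were named as well. Gene lists and members were chosen with earlier results of these data known. Protein sequences had been planned and were not used here. Alternatives were a filter on dim genes, repeated quantile normalization, centring, other summaries and variance models, array weights, a replicate block, leaving out arrays, marker covariates, other thresholds and FCROS, rewritten from the study's description. List genes without a single-symbol probe set were not analysed here.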

Additional observations from a re-analysis of the deposited data

Results flagged for a closer look

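Of 76 groups of 5 arrays, for 38 genes named above, 3 held an array whose gap to the nearest other exceeded 0.71 of the range of its group, and chance gives about 1 in 20. Setd4 on Dp5/Dp1 replicate 3 read 6.54, below the other 4 arrays at 6.59 to 6.61. Chaf1b on control replicate 3 read 5.79, below the others at 5.98 to 6.02. Tbr1 on Dp5/Dp1 replicate 5 read 9.78, below the others at 10.04 to 10.12.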

How the results depend on the processing

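The main fit called 4 of the 8 chromatin genes and 41 of all genes. The number of the 8 called was 3 to 5 with the dim filter, repeated quantile normalization, centring, other probe set summaries, trend with robust variance, array weights, choroid plexus markers as a covariate or an adjusted p under 0.1. FCROS passed 6 of the 8, all but Setd4 and Chaf1b, and 1008 of all genes. With choroid plexus and habenula markers together 1 of the 8 and 24 genes were called, without Dp5/Dp1 replicates 2 and 5 together 1 and 21, and with a limit of 1.4-fold 0 and 6. Leaving out 1 array gave 2 to 3 of the 8 and 29 to 39 of all genes, with 2 without control replicate 4 or Dp5/Dp1 replicate 5. The replicate block called 1 of the 8, N6amt1 (adjusted p = 0.0422), and 26 of all genes. Correlations of same-numbered arrays ran from -0.51 to 0.40, and only replicate 2 correlated best with its own number. This does not settle whether the numbers pair the samples, since tissue markers also varied between arrays. No list gene was called in any limma fit. N6amt1, Usp16, Mis18a, Morc3, Brwd1 and Hmgn1 were higher in every fit. The sign of the difference changed only for Setd4 and Chaf1b, both near 0. Setd4 was at -0.0038 after centring, -0.0048 with array weights, -0.0057 without replicates 2 and 5, -0.0021 with choroid plexus and -0.0073 with both marker means as covariates, 0.0013 under FCROS, whose rank score fell on the lower side, and -0.012 to 0.015 with 1 array left out. Chaf1b was at 0.0044 after repeated quantile normalization, 0.018 and 0.025 with the covariates, and -0.043 to 0.014 with 1 array left out. Why calls moved was not tested, beyond the fewer arrays of some fits. The dimness of Chaf1b and Setd4 limits what their values show.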
